A study of Mus musculus with 6 samples.

Results

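Phosphatidylcholine and phosphatidylethanolamine are the main phospholipids of cell membranes, and the liver also needs phosphatidylcholine for bile and for lipoprotein particles. Both are made by parallel branches in which a kinase phosphorylates choline or ethanolamine, a cytidylyl transferase joins the product to CTP, and a transferase moves the head group onto diacylglycerol. The liver has a further route, in which PEMT methylates phosphatidylethanolamine to phosphatidylcholine, and mitochondria make phosphatidylethanolamine from phosphatidylserine with PISD. The enzymes examined here were the ethanolamine kinases Etnk1 and Etnk2, the choline kinases Chka and Chkb, the cytidylyl transferases Pcyt2 (ethanolamine branch) and Pcyt1a (choline branch), the transferases Cept1 and Chpt1, Pemt and Pisd, 10 genes in all. A gene was counted as measured where a probe set was annotated with that symbol and no other, and the brightest such probe set, by its mean over the 6 arrays, stood for the gene. By this rule 8 of the 10 enzymes were measured, by 16 probe sets, among 12393 measured genes of the array. Etnk2 and Pisd had no such probe set. The set was chosen by the enzymes' place in these pathways and by the measured difference of Pcyt2, the gene next to Sirt7, between the 2 groups, so its values are a description and support nothing by themselves.

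Liver RNA came from mice with a knock-out Sirt7 allele (3 samples, called knockout) and from mice with the wild-type allele (3 samples), each hybridised to its own 1-colour Affymetrix array. SIRT7 is a nuclear NAD-dependent deacylase of the sirtuin family, and the study's title links it to MYC activity and tumour formation. Strain, age, sex, diet, the construction of the allele and the cells in which it acts are not stated in the labels, and both groups were handled under the same conditions. Nothing in the labels says that the samples of a group are separate animals, so errors and p-values reflect how far these samples differ from each other, and that spread may be technical. Each sample is called a liver below for short.

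Values are log2 expression values, so a difference of 1 is a doubling, and all differences are knockout minus wild type. Arrays of the same group correlated at 0.962 to 0.984 across the 8343 tested genes (mean log2 value of at least 4) and arrays of different groups at 0.949 to 0.979. Wild-type replicate 3 stood nearer to the knockout arrays (0.972 to 0.979) than to the other wild-type arrays (0.968 and 0.971). For the enzymes the text therefore gives the lowest and highest difference when 1 array was left out. Hepatocyte markers were abundant in every liver, with list means of 12.46 to 12.78 in knockout and 12.58 to 12.78 in wild type and 10 of 10 markers over the filter. The 9 measured Kupffer cell and macrophage markers averaged 8.48 to 8.87 in knockout and 8.39 to 8.45 in wild-type livers, with 9 of 9 over the filter. Their part in the results below was not tested. The 2 measured adipocyte markers were under the filter in both groups (2.04 to 2.16 in knockout and 2.05 to 2.27 in wild type). In whole liver, fewer cells of a type and less RNA per cell cannot be told apart.

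Pcyt2, which encodes the enzyme that makes CDP-ethanolamine, stood far below its wild-type level in every knockout liver. Each of the 7 other measured enzymes overlapped between the groups, as did most tested genes (9.74% did not overlap). Pcyt2 was at 6.18, 8.07 and 8.45 in knockout livers, against 11.28, 11.61 and 11.46 in wild-type livers. All knockout values lay below all wild-type values, and knockout replicate 1 lay well below the other knockout livers. The mean was 7.57 ± 1.21 in knockout and 11.45 ± 0.16 in wild type (SD, n = 3 each), a difference of -3.88 (SE 0.51, 95% interval -5.05 to -2.72), or 14.8-fold lower. Measured from the wild-type mean, Pcyt2 was 38.5-fold lower in knockout replicate 1, 10.4-fold lower in knockout replicate 2 and 8.02-fold lower in knockout replicate 3. The knockout values spanned 2.26 log2 units and the wild-type values 0.33. By absolute difference Pcyt2 was number 7 of the 8343 tested genes.

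**Figure D1:**
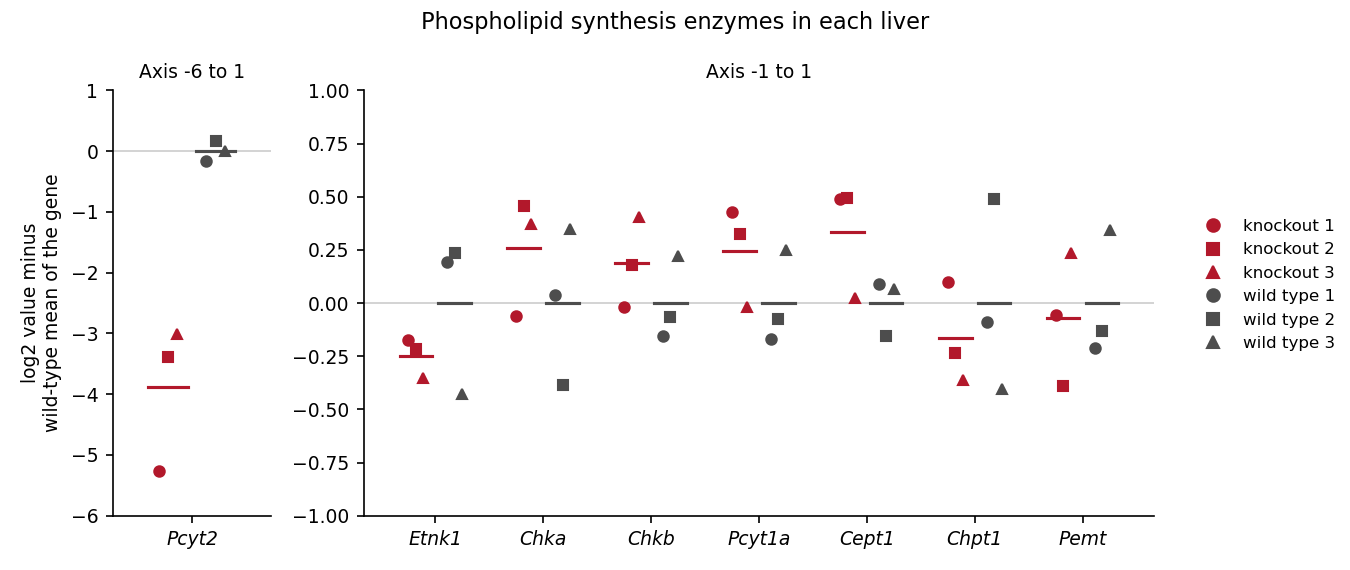
Each point is 1 liver, plotted as its log2 value minus the wild-type mean of the same gene, with knockout livers (red) left of wild-type livers (grey), replicates by symbol and group means as bars. Pcyt2, on an axis from -6 to 1, has all 3 knockout livers at -3.00 or below. The 7 other enzymes, on an axis from -1 to 1, overlap between the groups, as do most tested genes (9.74% do not).

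With limma over all tested genes and a Benjamini-Hochberg adjusted p under 0.05, 0 of the 8 measured enzymes were called, against 0.024% of all tested genes (2 of 8343). With array weights, a setting that called 1748 genes (21.0%), 3 of the 8 were called. At an unadjusted p under 0.05 stood 1 of the 8, Pcyt2, against 6.46% of all tested genes. The groups did not overlap in 1 of the 8, again Pcyt2, against 9.74% of all tested genes. Since Pcyt2 led to the choice of the set, nothing is read from these counts. The adjusted p of Pcyt2 was 0.0875 with limma. It was under the threshold without knockout replicate 1, the most extreme liver (adjusted p = 0.00127), where the difference was smaller, at -3.19. Pcyt2 was measured by 1 probe set, whose position relative to the altered part of the Sirt7 locus is not stated in the labels.

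Sirt7, the targeted gene, was at 2.38, 3.10 and 2.86 in knockout livers, against 9.85, 9.80 and 9.57 in wild-type livers. The limma adjusted p was 3.99e-06, and Sirt7 fell by 6.96 on the log2 scale. Its knockout values lay under the filter. Pcyt2 is the gene directly before Sirt7 on chromosome 11 in the RefSeq annotation of GRCm38.p6. The 5 nearest genes on the array were taken on each side of Sirt7, 9 of them besides Pcyt2. On the side of Pcyt2, the anaphase-promoting complex subunit gene Anapc11 differed by -0.11 (SE 0.20), the mRNA export factor gene Alyref by 0.22 (SE 0.21; 0.08 to 0.32 when any 1 array was left out) and the protein disulfide isomerase gene P4hb by -0.10 (SE 0.17; -0.16 to -0.06). Mcrip1, 8 places away, was at 7.62, 7.62 and 7.93 in knockout livers, against 6.53, 6.68 and 6.50 in wild-type livers. Its groups did not overlap, and the difference was 1.15 (SE 0.19, limma adjusted p = 0.213). On the other side, the transcription factor gene Mafg differed by 0.02 (SE 0.30), with a sign that turned without knockout replicate 3 or wild-type replicate 3 and with array weights, and with 0.54 on another probe set. Notum, a secreted Wnt inhibitor gene, differed by 0.66 (SE 0.34; 0.38 to 0.97 when any 1 array was left out), Aspscr1 by 0.01 (SE 0.19) and Cenpx by 0.34 (SE 0.18). The groups of Cenpx did not overlap either, and neither did those on the other Mafg probe set. Of all tested genes, 9.74% had groups that did not overlap. Rac3 was under the filter. The tested neighbours other than Pcyt2 thus differed by -0.11 (Anapc11) to 1.15 (Mcrip1). Pcyt2 was chosen with its difference known, so its contrast with them is a description.

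**Figure D2:**
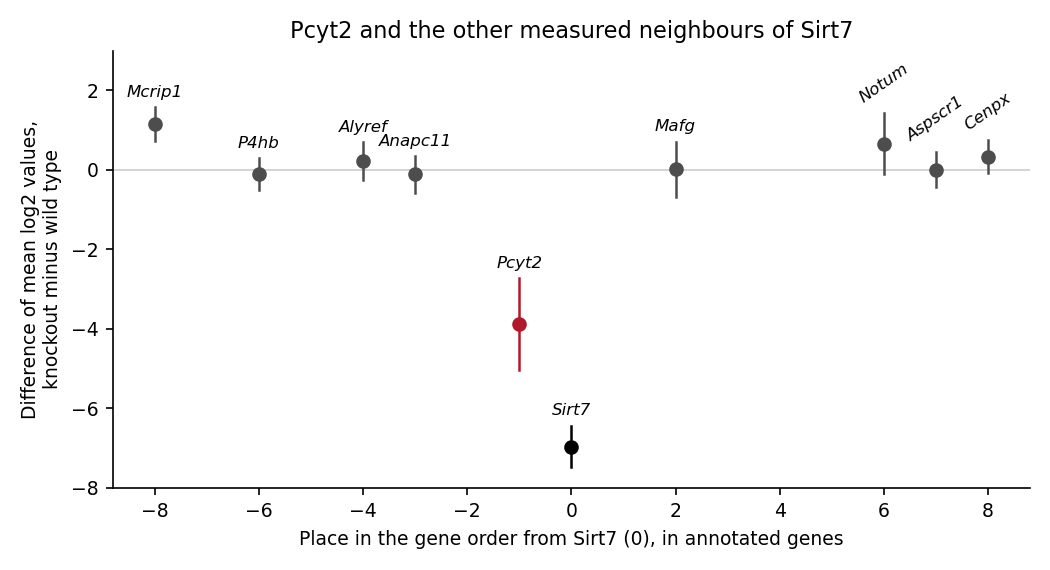
Differences of mean log2 values (knockout minus wild type) with 95% intervals are plotted against the place of each measured gene in the gene order, with Sirt7 at 0. Pcyt2, at place -1, lies at -3.88 and Sirt7 at -6.96, while the other neighbours lie between -0.12 and 1.15.

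Upstream in the ethanolamine branch, Etnk1 encodes the kinase that makes phosphoethanolamine. It was at 9.13, 9.08 and 8.94 in knockout livers, against 9.49, 9.53 and 8.87 in wild-type livers. Wild-type replicates 1 and 2 were above all knockout livers and wild-type replicate 3 was below them. The difference was -0.25 (SE 0.22, 95% interval -0.76 to 0.27), with a limma adjusted p of 0.424 at its most negative, -0.46, when wild-type replicate 3 was left out. Leaving out wild-type replicate 2 gave -0.13, and leaving out wild-type replicate 1 gave -0.15. The other Etnk1 probe sets were dim, with means of 4.87 and 3.58, and differed by 0.32 and 0.02. Averaging the probe sets therefore turned the difference to 0.03.

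Choline kinase alpha and beta, encoded by Chka and Chkb, open the choline branch. Chka was at 9.56, 10.08 and 9.99 in knockout livers, against 9.65, 9.23 and 9.97 in wild-type livers. Knockout replicate 1 and wild-type replicate 3 crossed the groups, and the difference was 0.26 (SE 0.25, 95% interval -0.31 to 0.82). Chkb was at 10.23, 10.43 and 10.66 in knockout livers, against 10.09, 10.18 and 10.47 in wild-type livers. Wild-type replicate 3 again lay among the knockout values, and the difference was 0.19 (SE 0.20, 95% interval -0.27 to 0.65). When 1 array was left out, Chka lay between 0.06 without wild-type replicate 2 and 0.43 without wild-type replicate 3. Chkb lay between 0.08 without knockout replicate 3 and 0.30 without wild-type replicate 3.

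Pcyt1a encodes CTP:phosphocholine cytidylyl transferase alpha, the enzyme generally regarded as rate-limiting in the choline branch and the counterpart of Pcyt2 there. It was at 6.98, 6.88 and 6.54 in knockout livers, against 6.38, 6.48 and 6.80 in wild-type livers. Knockout replicate 3 and wild-type replicate 3 crossed the groups. The difference was 0.24 (SE 0.21, 95% interval -0.23 to 0.72), and when 1 array was left out it lay between 0.15 (without knockout replicate 1) and 0.38 (without knockout replicate 3), with 0.37 without wild-type replicate 3. The other 3 Pcyt1a probe sets, which share the RNA of the same livers and are no replicates, differed by 0.73, 0.38 and 0.39, at means of 5.34, 5.02 and 4.55. On each of the 4 probe sets wild-type replicate 3 was the highest wild-type liver and knockout replicate 3 the lowest knockout liver.

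Reported SIRT7 partners give a reason to look at the start of these genes: the ETS factor ELK4, known to bring SIRT7 to promoters in human cells, and MYC, the factor in the study's title. SREBP factors, which control lipid synthesis genes, were added. RefSeq promoter windows of build GRCm38.p6, 250 bases before to 50 bases after each annotated start, were matched by symbol for 9 of the 10 enzymes, all except Pcyt2, and searched on both strands. A gene can have several windows, which may overlap: the 9 enzymes had 15, and all 27025 genes had 32851. The E-box letters CACGTG, bound by MYC with MAX, were found in 0 of the 9 enzymes, against 8.09% of all genes (7.15% of all windows). The ETS letters ACTTCCGG were found in 1 of the 9, Pcyt1a, against 4.31% of all genes (3.89% of windows). The SREBP letters TCACCCCAC were also found in 1 of the 9, Pcyt1a, against 0.614% of all genes (0.551% of windows). Each of these matches in Pcyt1a is 1 site seen in 2 overlapping windows. The 250 bases before the first Pcyt1a start (chr16:32430671-32430920, plus strand) are shown because this was the one enzyme with any of these matches, with the letters in capitals.
Pcyt1a: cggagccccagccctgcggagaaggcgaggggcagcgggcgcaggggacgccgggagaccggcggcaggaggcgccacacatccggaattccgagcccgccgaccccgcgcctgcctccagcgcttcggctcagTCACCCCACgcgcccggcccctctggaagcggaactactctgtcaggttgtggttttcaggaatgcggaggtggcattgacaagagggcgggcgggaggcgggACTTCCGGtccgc
The SREBP letters lie 116 to 108 bases and the ETS letters 13 to 6 bases before that start, and they do not overlap. These matches are strings of letters and not measured sites, and factor binding was not measured.

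The last step of the branches is shared in part. Cept1 encodes a transferase that accepts CDP-choline and CDP-ethanolamine, and Chpt1 encodes one for CDP-choline. Cept1 was at 11.40, 11.40 and 10.93 in knockout livers, against 10.996, 10.75 and 10.97 in wild-type livers. Knockout replicates 1 and 2 were above all wild-type livers, and knockout replicate 3 lay among them. The difference was 0.34 (SE 0.21, 95% interval -0.13 to 0.80), the largest in size among the 7 enzymes other than Pcyt2, and it lay between 0.26 and 0.49 when any 1 array was left out.

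Chpt1 was at 9.47, 9.14 and 9.01 in knockout livers, against 9.28, 9.86 and 8.97 in wild-type livers. The knockout values lay within the range of the wild-type values, and the difference was -0.17 (SE 0.26, 95% interval -0.76 to 0.43). Its 4 probe sets did not point one way. A probe set of nearly the same mean (9.26) differed by -0.51, and 2 others differed by 0.13 and -0.19, at means of 7.54 and 6.50. Without wild-type replicate 3 all 4 were negative, between -0.71 and -0.17, and the used probe set ran from -0.37 there to 0.08 without wild-type replicate 2.

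Pemt, the methylation route, was at 11.55, 11.22 and 11.84 in knockout livers, against 11.39, 11.48 and 11.95 in wild-type livers. The values of the groups were interleaved. The difference was -0.07 (SE 0.24, 95% interval -0.62 to 0.48), and it lay between -0.22 and 0.10 when any 1 array was left out, with a sign that turned without wild-type replicate 3 (0.10) or knockout replicate 2 (0.09).

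**Figure D3:**
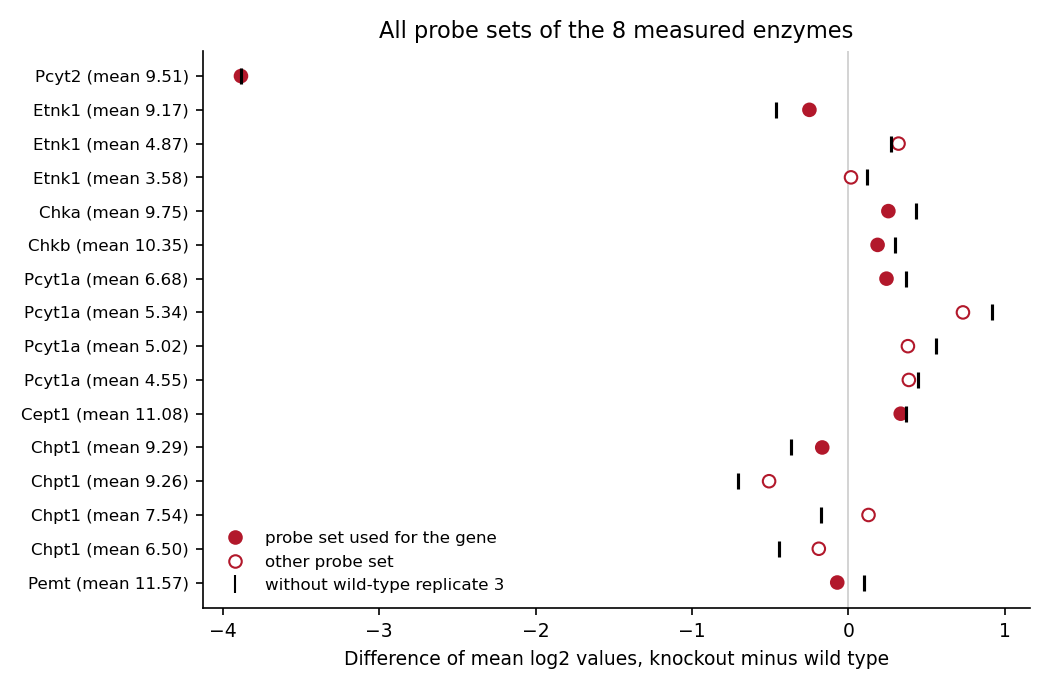
Differences of mean log2 values (knockout minus wild type) are plotted for all 16 probe sets of the 8 measured enzymes, named by gene and mean over 6 arrays, with the used probe set filled, others open and a tick for the value without wild-type replicate 3. All 4 Pcyt1a probe sets are positive, the Etnk1 and Chpt1 probe sets lie on both sides of 0, and Pcyt2 alone lies beyond -0.75.

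As a set, the 8 enzymes did not move in one direction, with 4 higher and 4 lower in knockout livers and a median difference of 0.06, against -0.03 over all tested genes. The 7 besides Pcyt2 had a median absolute difference of 0.245, against 0.19 over all tested genes, and a largest one of 0.336. Wild-type replicate 3 lay outside the other wild-type livers on the side of the knockout mean in 6 of the 8 (Chka, Chkb, Chpt1, Etnk1, Pcyt1a and Pemt), against 61% of all tested genes. Without that array the groups did not overlap in 4 of the 8 (Chkb, Etnk1, Pcyt1a and Pcyt2), against 30.2% of all tested genes, and limma called 0 of them.

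The genes that supply and consume the intermediates of these branches showed no call either. Of 83 genes in 5 lists, 57 were tested. Limma called 0 higher and 0 lower, against 0% and 0.024% of all tested genes. With array weights 17 of the 57 were called, against 21.0% of all tested genes (1748 of 8343). In the unweighted fit 2 higher and 0 lower had an unadjusted p under 0.05, against 3.04% and 3.42% of all tested genes. The groups did not overlap in 2 higher and 4 lower of the 57, against 9.74% of all tested genes in either direction. The median difference of the 57 was -0.14 (24 higher, 33 lower), against -0.03 over all tested genes, which also leaned lower (3781 higher, 4547 lower).

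From each list, the 4 tested genes with the smallest p in these data are named below, so they are not typical of it. Both genes under an unadjusted p of 0.05 belong to the list of phospholipid remodelling and breakdown. Lpcat3, which encodes an enzyme that puts unsaturated fatty acids onto lysophosphatidylcholine, was at 9.51, 9.54 and 9.31 in knockout livers, against 8.93, 8.87 and 8.93 in wild-type livers. The groups did not overlap, the difference was 0.54 (SE 0.17, limma adjusted p = 0.746), and it lay between 0.50 and 0.61 when any 1 array was left out. Pla2g6, which encodes a calcium-independent phospholipase A2, was at 6.94, 6.82 and 7.84 in knockout livers, against 6.04, 6.52 and 6.72 in wild-type livers. Its groups did not overlap, and the difference was 0.77 (SE 0.31, limma adjusted p = 0.769). When any 1 array was left out it lay between 0.45 and 0.96. Of the same list (21 tested, 11 higher, 10 lower, median 0.01), the cytosolic phospholipase gene Pla2g4a differed by -0.49 (SE 0.24) near the filter, with -0.64 to -0.25 when any 1 array was left out. The groups of Pla2g4a did not overlap either. Pnpla6, which encodes a phosphatidylcholine-degrading esterase, differed by -0.46 (SE 0.24). The lowest difference of the list, outside that rule and also named after its values were seen, was that of Gdpd1, which encodes a lysophospholipase D. It was at 7.645, 5.697 and 6.696 in knockout livers, against 8.29, 7.31 and 6.97 in wild-type livers. The groups overlapped, and the difference of -0.84 (SE 0.50) lay between -1.33 and -0.35 when any 1 array was left out.

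Genes that make diacylglycerol or use it for triglyceride had 2 higher and 7 lower of 9 tested, with a median of -0.16 and 0 called by limma. Dgat1, which encodes an enzyme of the last step of triglyceride synthesis and so draws on the same diacylglycerol, was at 7.96, 7.87 and 8.47 in knockout livers, against 8.45, 8.63 and 8.70 in wild-type livers. Knockout replicate 3 lay among the wild-type values, and the difference was -0.49 (SE 0.22, 95% interval -0.99 to 0.00). Dgat2 differed by -0.38 (SE 0.26) on its brightest probe set (-0.60 to -0.22 when any 1 array was left out) and by 0.24 on another. The acyltransferase gene Agpat5 differed by -0.40 (SE 0.28), with -0.64 to -0.21 when any 1 array was left out. Lpin2, which encodes a phosphatidate phosphatase that makes diacylglycerol, differed by 0.36 (SE 0.21) on its brightest probe set (0.20 to 0.51 when any 1 array was left out) and by 1.48 and 1.18 on 2 others, at means of 7.81 and 6.04. On the probe set with 1.48 it was at 9.23, 8.07 and 8.36 in knockout livers, against 6.43, 7.47 and 7.32 in wild-type livers. All knockout values were above all wild-type values there and on the probe set with 1.18, while the groups overlapped on the brightest. Of all tested genes, 9.74% had groups that did not overlap. The highest difference of the list was that of the phosphatidate phosphatase gene Lpin1, outside that rule and also named after its values were seen. It was 0.49 (SE 0.39), with 0.01 to 0.83 when any 1 array was left out.

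Among genes of other phospholipid head groups (9 tested, 4 higher, 5 lower, median -0.23), Cdipt, the phosphatidylinositol synthase gene, was at 10.20, 10.41 and 11.20 in knockout livers, against 11.12, 11.42 and 11.07 in wild-type livers. Knockout replicate 3 lay among the wild-type values, and the difference was -0.60 (SE 0.28; -0.90 to -0.40 when any 1 array was left out), with 0.27 on another probe set. Ptdss2, which encodes an enzyme that makes phosphatidylserine from phosphatidylethanolamine, differed by -0.52 (SE 0.42). It lay between -0.90 without knockout replicate 3 and -0.14 without knockout replicate 1, with -0.87 without wild-type replicate 3. The 6 other Ptdss2 probe sets, all dimmer, differed by -0.41 to 0.09, and the mean of the probe sets by -0.22. The sphingomyelin synthase gene Sgms1 differed by 0.42 (SE 0.28), with 0.24 to 0.75 when any 1 array was left out. Tamm41, a gene of mitochondrial cardiolipin synthesis, differed by -0.26 (SE 0.19), with -0.12 without wild-type replicate 3, and its groups did not overlap.

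Genes of choline uptake and oxidation had 3 higher and 6 lower of 9 tested, with a median of -0.18. Dmgdh, which encodes dimethylglycine dehydrogenase of the mitochondrial choline oxidation route, was at 11.45, 11.67 and 11.84 in knockout livers, against 11.97, 12.01 and 11.94 in wild-type livers. All knockout values were below all wild-type values, and the difference was -0.32 (SE 0.18, 95% interval -0.74 to 0.10). Sardh, the next enzyme gene of that route, differed by -0.37 (SE 0.25; -0.58 to -0.14 when any 1 array was left out) and by -0.18 on another probe set. Aldh7a1, whose product oxidises betaine aldehyde, differed by -0.42 (SE 0.23; -0.61 to -0.30) and, on dimmer probe sets, by -0.05 and -0.23. The choline transporter gene Slc44a1 differed by 0.17 (SE 0.18; 0.10 to 0.25), with -0.12 on another probe set. In the methyl donor cycle, which supplies the methyl groups of the PEMT reaction, 4 were higher and 5 lower of 9 tested, with a median of -0.03. Cbs, which encodes the enzyme that draws homocysteine out of the cycle, differed by -0.50 (SE 0.27; -0.80 to -0.35 when any 1 array was left out), and by -0.11 on another bright probe set (mean 10.59). Gamt, a methyl group consumer in creatine synthesis, differed by 0.40 (SE 0.23; 0.23 to 0.59). Ahcy, which clears S-adenosylhomocysteine, differed by -0.19 (SE 0.24; -0.37 to -0.02), and its relative Ahcyl2 by -0.17 (SE 0.21; -0.31 to -0.06).

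**Figure D4:**
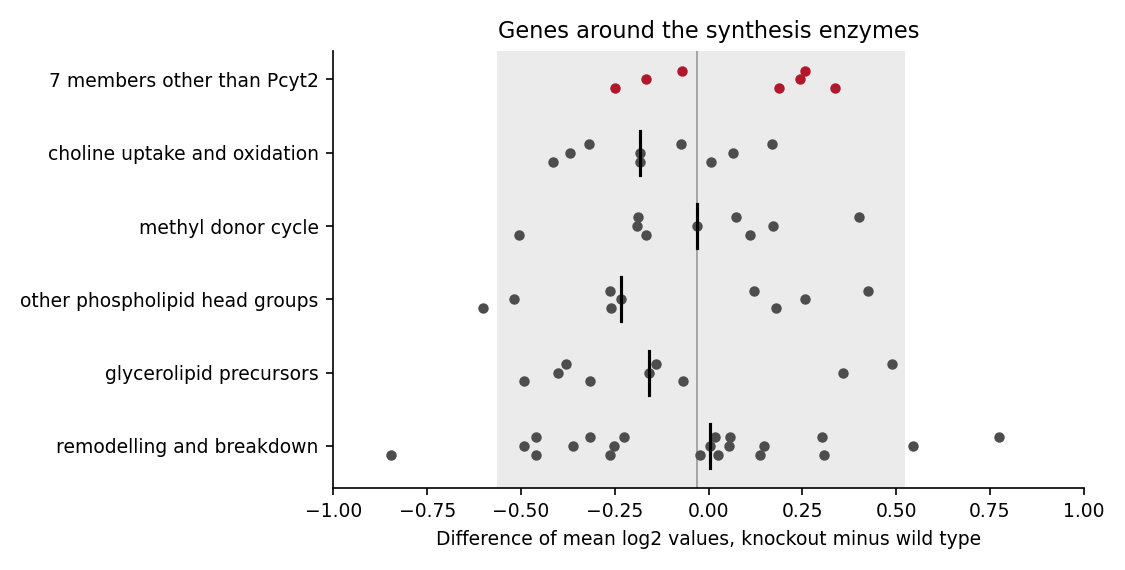
Each point is the difference of mean log2 values (knockout minus wild type) of 1 tested gene, for the 7 enzymes other than Pcyt2 (red) and the 5 lists around them (grey, bars are list medians); the shaded band runs from the 5th to the 95th percentile of all tested genes, -0.56 to 0.52, with their median as a line. The 7 enzymes lie inside the band, and list medians lie between -0.23 and 0.01.

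Among 2293 tested genes whose values spanned at least 1 log2 unit over the 6 arrays, the 5 with the pattern most like that of Pcyt2 were Fgd4 (Pearson r = 0.995), Cxcl14 (0.984), Nat8 (0.979), Ripor2 (0.967) and Hexdc (0.963). These correlations over 6 arrays describe how the genes were picked, and the difference between the groups is part of each. Cxcl14, a chemokine gene on chromosome 13, was at 4.74, 5.49 and 5.71 in knockout livers, against 8.002, 8.42 and 8.62 in wild-type livers. Fgd4 on chromosome 16, which encodes an exchange factor for CDC42, was at 3.98, 4.41 and 4.42 in knockout livers, against 5.17, 5.11 and 5.14 in wild-type livers, close to the filter, and its other probe sets, all dimmer, differed by -0.21, 0.05 and 0.10. In each of the 5 genes knockout replicate 1 had the lowest value and the groups did not overlap. Pcyt2 has both traits, so the choice by likeness to it favours them, and nothing is read from them. Differences were -3.03 (SE 0.29) for Cxcl14, -1.77 (SE 0.29) for the acetyltransferase gene Nat8, -1.44 (SE 0.24) for Ripor2, -1.25 (SE 0.24) for the hexosaminidase gene Hexdc and -0.87 (SE 0.20) for Fgd4. Besides Sirt7, Cxcl14 was the only gene that limma called (adjusted p = 0.0142), and its other probe set differed by -3.59. Its limma adjusted p was 0.0754 with averaged probe sets, 0.0901 without knockout replicate 2 and 0.0677 without knockout replicate 3. Hexdc lies on chromosome 11 as well, 36 places after Sirt7, while the other 4 lie on chromosomes 6, 13 and 16.

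**Figure D5:**
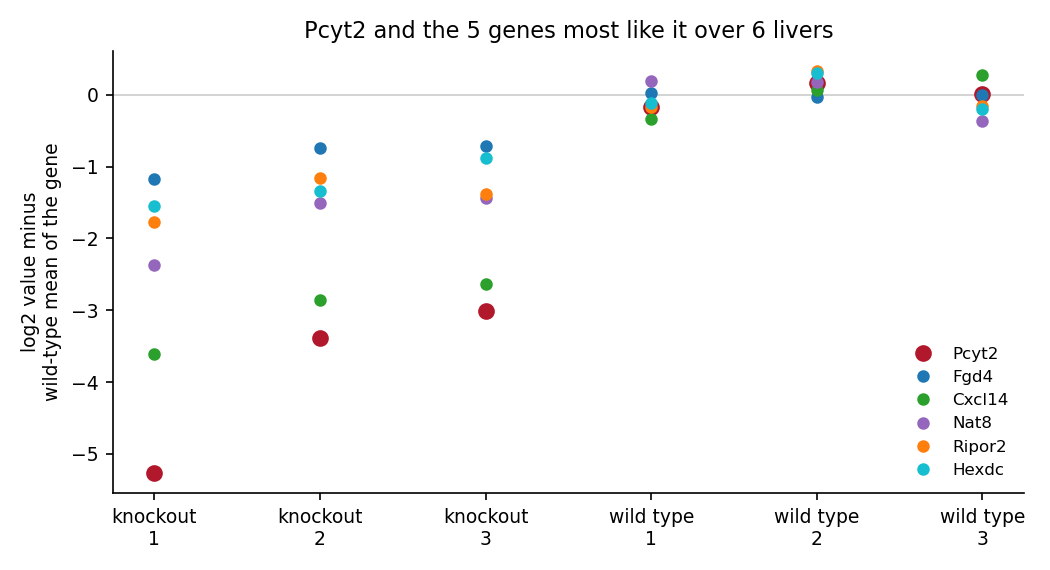
For each liver, knockout before wild type, the points give the log2 value minus the wild-type mean of the same gene for Pcyt2 and the 5 genes most like it. All 6 genes are lowest in knockout replicate 1, where Pcyt2 stands at -5.27, a trait that the choice by likeness to Pcyt2 favours.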

How the data were processed

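Total RNA of 6 mouse liver samples (3 knockout, 3 wild-type) was labelled as biotinylated cRNA for Affymetrix arrays, per the labels' protocols. The authors deposited 1 log2 value per probe set and array, and the submitters' processing notes name GCRMA 2.20.0 and R 2.11.1 without settings; the log2 scale was read from the range of 0.841 to 13.969. GCRMA pulls dim transcripts toward the lower end, so differences between dim values are not proportional to RNA amounts. The values hold no detection call, and for arrays their number limits the precision.

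Of 22626 probe sets, 20380 had 1 gene symbol in the platform annotation, 691 several and 1555 none or no entry; 20351 of the first were matched to RefSeq gene identifiers (GRCm38.p6) and 0 symbols changed. The brightest probe set stood for each of 12393 genes, and 8343 with a mean of at least 4 were tested with limma 3.58.1 in R 4.3.3 (lmFit, eBayes, 2-sided, 4 residual and 4.6 prior degrees of freedom), adjusted over all of them. Errors are moderated standard errors and 95% intervals, or SD over 3 samples. The fit was tested on simulated data. Same-numbered livers of the groups did not deviate together (correlations -0.089, -0.091 and -0.194), so no replicate block was used.

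The enzymes, gene lists and tests were chosen with earlier results of these data known. The rule for named genes took the 10 enzymes, Sirt7, its 5 nearest measured genes on each side, the 4 tested genes with the smallest p in each list, the 5 genes most correlated with Pcyt2 and 5 hepatocyte markers (Alb, Ttr, Apoa1, Hnf4a and Cps1). The alternatives were no or a stricter filter (mean of 6), averaged or separate probe sets, quantile normalization, array weights, an intensity trend, the replicate block and leaving out each array.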

Additional observations from a re-analysis of the deposited data

How the results depend on the processing

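The Pcyt2 difference was negative under all 14 alternatives, between -4.32 and -3.19 when 1 array was left out. It passed the threshold without knockout replicate 1 and with array weights (-3.57, limma adjusted p = 0.00415); elsewhere its adjusted p was 0.0517 to 0.257. With the replicate block the difference was -3.88 (adjusted p = 0.175), and that fit changed no call. Left-out arrays gave 0 to 1 called members and 1 to 38 called genes over the array, the highest without wild-type replicate 3 (30 higher, 8 lower). The mean of the probe sets gave 1 called gene. Array weights, which gave knockout replicate 2 a weight of 6.12 and the other arrays 0.31 to 2.54, called 1748 genes, among them 3 members (Pcyt2, Chka at 0.62 and Cept1 at 0.55) and 17 genes of the wider lists, against 0 members and 0 list genes without weights; the cause was not tested. Signs turned in small differences: with averaged probe sets Etnk1 (0.03), with quantile normalization Aspscr1 (-0.01), with array weights Aspscr1 (-0.09) and Mafg (-0.26), and with 1 array left out Pemt (-0.22 to 0.10), Chpt1 (-0.37 to 0.08), Anapc11 (-0.24 to 0.04), Aspscr1 (-0.10 to 0.11) and Mafg (-0.32 to 0.25). Array signal close to the filter limits Fgd4, Pla2g4a and the dim Etnk1 and Pcyt1a probe sets.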

Other observations

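The array held 4 probe sets annotated to several genes that include Pisd or its pseudogenes Pisd-ps1 and Pisd-ps3, so their signal belongs to no single gene. The one whose annotation includes Pisd itself was at 8.18, 9.04 and 9.05 in knockout livers, against 9.19, 9.41 and 9.05 in wild-type livers, a difference of -0.46 (SE 0.27, 95% interval -1.09 to 0.17). The 3 others differed by -0.33, -0.31 and -0.29, and knockout replicate 1 was the lowest liver in all 4. Among the 478 probe sets with several symbols and a mean of at least 4, limma called 0, against 26 at an unadjusted p under 0.05.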
